A study of Mus musculus with 12 samples.

Results

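The vesicular glutamate transporters Slc17a6 (VGLUT2), Slc17a7 (VGLUT1) and Slc17a8 (VGLUT3) were followed in single cells of the developing mouse cochlea. They were taken by name, and these 3 genes are 3 of the 24489 genes in the count table. Each of them loads glutamate into synaptic vesicles with the proton gradient that the vesicular ATPase builds up, so that a neuron or hair cell without any of them cannot release glutamate from vesicles in the usual way. Inner hair cells are known to depend on Slc17a8, whereas the spiral ganglion neurons (SGNs) that carry sound information to the brain are known for Slc17a6 and Slc17a7. SGNs are divided into type I neurons of the classes Ia, Ib and Ic, which contact inner hair cells (IHCs), and type II neurons, which contact outer hair cells (OHCs).

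tdTomato-positive cells of dissociated spiral ganglia were placed by FACS in plates of 384 wells, and their full-length cDNA was sequenced by the Smart-seq2 method. The red reporter came from the Ai14 allele, recombined by Cre from the parvalbumin locus (PVcre;Ai14) in 11 of 12 plates and labelled TrkCcre in E14.5 replicate 2. The stages E16.5 and E17.5 had 3 plates and 1 plate, and each of the other stages, E14.5, E15.5, E18.5 and the postnatal P3, had 2. A plate is 1 sample and pools several animals. No sample lacked the reporter and no gene was deleted in any sample, and the sort keeps cells in which the Cre locus was used at any earlier time. No group was treated. Besides stage, the groups differ in plate series and, for E14.5, in the Cre line of 1 plate. According to the study, the P3 data come from its earlier published work, and the facility for the sort changed for E18.5. At E14.5 and E15.5 the cochlea was opened and the modiolus region was taken. These differences go with stage and cannot be told apart from it. For E14.5 replicate 1 the label and the study's methods name different Cre lines.

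After the study's filter, 4226 of 4608 wells were kept. They held 2315 SGN-like, 1219 glia-like, 570 otic mesenchyme-like (OM-like), 86 hair cell-like (HC-like) and 36 unnamed cells. Total counts per plate ran from 80997594 to 303906928, and the median number of genes per cell ran from 4691 to 9629.5. The 6 plates of the series SS2_20 lay between 4691 and 4983, while the plates of all other series lay between 8426 and 9629.5, and outside SS2_20 a plate series belongs to 1 stage. The difference between these plates and the stages cannot be told apart there. Levels are given as CPM, the counts of a gene scaled to the same total of gene counts after summing the cells of a class in a plate, and comparisons between genes are given per length of the principal transcript.

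In the mouse genome build GRCm38, Slc17a6 lies on chromosome 7 (chr7:51622006-51671119, plus strand), Slc17a7 lies on the same chromosome and strand (chr7:45163949-45176142) and Slc17a8 lies on chromosome 10 (chr10:89574020-89621253, minus strand). The principal transcript of each has 12 exons and codes for 582, 560 and 601 amino acids. Their coding sequences are alike, with 71.6% identical bases between Slc17a6 and Slc17a7, 70.6% between Slc17a6 and Slc17a8 and 69.2% between Slc17a7 and Slc17a8. The longest run of identical bases between any pair of whole principal transcripts, at any position, was 25 bases. The study counted uniquely mapped reads only. Both bear on whether reads of one transporter could be counted for another. The 60 coding bases in which all 3 are most alike are shown for this reason. They were read from the GENCODE vM21 transcripts and start at coding base 565 of Slc17a6, 541 of Slc17a7 and 619 of Slc17a8, and capitals mark the 47 bases that all 3 share.
Slc17a6: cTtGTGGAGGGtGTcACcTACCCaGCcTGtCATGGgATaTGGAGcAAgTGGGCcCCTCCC
Slc17a7: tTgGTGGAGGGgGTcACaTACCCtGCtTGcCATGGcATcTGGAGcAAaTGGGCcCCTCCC
Slc17a8: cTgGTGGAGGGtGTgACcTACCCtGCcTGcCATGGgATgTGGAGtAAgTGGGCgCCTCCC
Even in this window the differences between the transporters are spread along the sequence. The genes Gm45072 and Mir7055 lie inside Slc17a6 and Slc17a7 on the same strand, and neither overlaps an exon of the transporter.

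The first comparison follows the SGN-like cells of each plate over the stages. Slc17a6 was present from the start, lower at E18.5 than at E14.5 and highest at P3. Its level was 325 and 324 CPM in the E14.5 plates, 211 and 257 CPM at E15.5, 164, 148 and 179 CPM at E16.5, 118 CPM at E17.5, 172 and 175 CPM at E18.5, and 495 and 619.9 CPM at P3. The E18.5 plates lay below both E14.5 plates and the P3 plates lay above all others. In a fit over all stages with edgeR's quasi-likelihood test, Slc17a6 fell by 0.91 on the log2 scale (SE 0.14, adjusted p = 0.00097) from E14.5 to E18.5, in a comparison that called 23.6% of 17813 genes. It rose by 1.97 (SE 0.14, adjusted p = 2.0e-05) from E18.5 to P3, where 24.9% of genes were called, and P3 stood 1.06 (SE 0.14, adjusted p = 0.00012) above E14.5, where 45.4% were called. The single steps between E14.5 and E16.5 did not pass the threshold. The change was -0.51 (adjusted p = 0.056) from E14.5 to E15.5, where 5.92% of genes were called, and -0.51 (adjusted p = 0.073) from E15.5 to E16.5, where 1.9% were called. From E16.5 to E18.5 it was 0.10 (SE 0.12, adjusted p = 0.77), with 5.41% of genes called. The SGN-like sums include sub-clusters with Tlx3, a marker of vestibular ganglion neurons. These were 17 cells at E14.5, with 402 CPM of Slc17a6, and 68 cells at E16.5, with 491 CPM. Without them, the edgeR change from E14.5 to E15.5 was -0.44 (adjusted p = 0.18).

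Slc17a7 was low in the sums of all SGN-like cells at the earliest stages and rose most between E18.5 and P3. It measured 12.9 and 6.82 CPM at E14.5, 5.0 and 5.99 CPM at E15.5, 17.3, 15.1 and 13.2 CPM at E16.5, 18.3 CPM at E17.5, 32.1 and 30.7 CPM at E18.5, and 230 and 261 CPM at P3. All plates from E16.5 on lay above all plates of E14.5 and E15.5 in these sums. Unspecialized-like cells, a small class named from early genes such as Neurod1, stood higher at E14.5. They held 27.6 and 17.3 CPM in replicates 1 and 2 (19 and 10 cells). At E15.5 they held 32.5 and 0.33 CPM (6 and 22 cells), and the counts of replicate 1 came from 1 cell. From E14.5 to E15.5 Slc17a7 was lower, a step that did not pass the threshold in edgeR. It passed in DESeq2 (-0.88, adjusted p = 0.018), and without E14.5 replicate 2 the edgeR value was -1.28. The rise was 1.65 on the log2 scale (SE 0.25, adjusted p = 0.0011) from E14.5 to E18.5 and 3.25 (SE 0.26, adjusted p = 2.7e-05) from E18.5 to P3, and P3 stood 4.91 (SE 0.28, adjusted p = 6.3e-07) above E14.5. The steps from E15.5 to E16.5 (1.48, SE 0.25, adjusted p = 0.018) and from E16.5 to E18.5 (1.06, SE 0.22, adjusted p = 0.020) also passed the threshold. The first of these no longer did without E15.5 replicate 1 or 2 or E16.5 replicate 1 or 2 (adjusted p up to 0.106), and the second without E16.5 replicate 2 or E18.5 replicate 1 or 2 (adjusted p up to 0.18). Within the plates of SS2_20 alone, the step from E15.5 to E16.5 was 1.28 (adjusted p = 0.95).

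**Figure D1:**
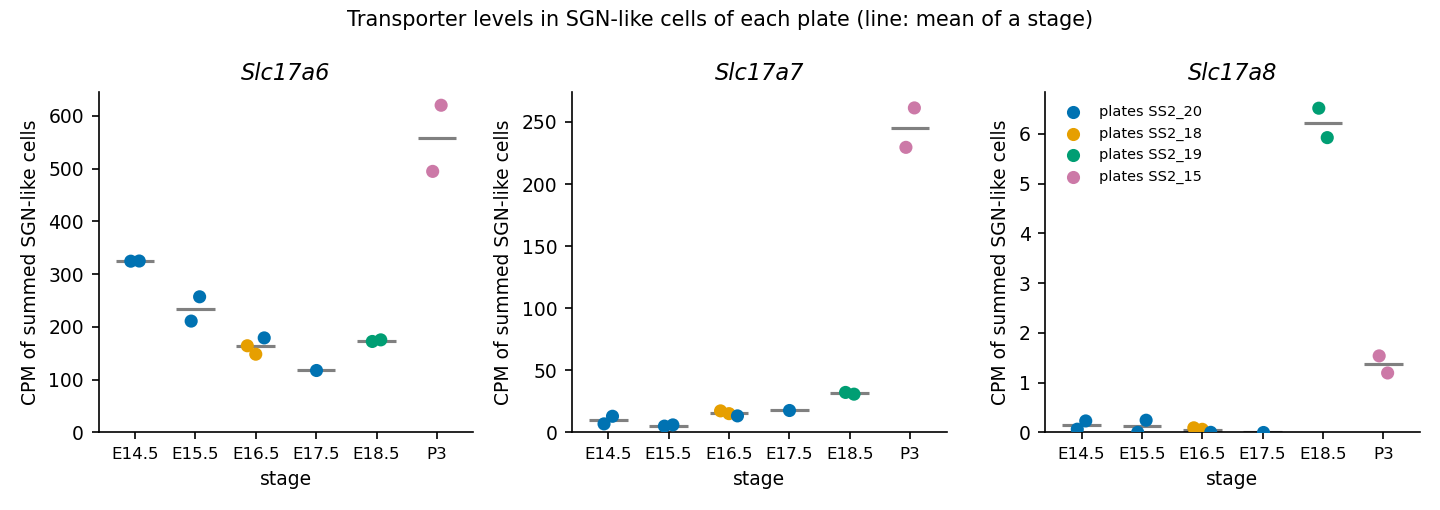
CPM of each transporter (y axes, linear, a scale of its own for each gene) in the summed SGN-like cells of each plate by stage (x axes), with points coloured by plate series and grey lines at the mean of a stage. Slc17a6 dips to 118 CPM at E17.5 and reaches 495 and 619.9 CPM at P3. Slc17a7 is lowest at E15.5, at 5.0 CPM, and reaches 261 CPM at P3, and Slc17a8 is at most 0.243 CPM except at E18.5 and P3.

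The balance of Slc17a7 and Slc17a6 shifted along with this. Per length, Slc17a7 was present at 0.0566 and 0.0298 times the level of Slc17a6 in E14.5 replicates 1 and 2, at 0.0337 and 0.0331 times at E15.5, at 0.265 and 0.249 times at E18.5, and at 0.659 and 0.598 times at P3. SGN-like cells taken as a whole held more Slc17a6 than Slc17a7 in all 12 plates. Over the order of stages, the log2 ratio had a Pearson r of 0.946 (permutation p = 2e-05, two-sided) and a Spearman rho of 0.958 (permutation p = 4e-05) over 12 plates, with Benjamini-Hochberg adjusted values of 4e-05 for both, the 2 relations of the family. Without the P3 plates, which are also the 2 farthest from the median stage, r was 0.901 over 10 plates. Within the 6 plates of SS2_20, r was 0.843 (exact permutation p = 0.044) and rho was 0.736 (exact permutation p = 0.12).

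Glial RNA differed between the same sums. The summed level of the 10 glial markers in the SGN sums was between 64 and 136 CPM in the 6 plates of SS2_20, which cover E14.5 to E17.5, 726 and 608 CPM in the other E16.5 plates, 2895 and 2752 CPM at E18.5, and 7224 and 9263 CPM at P3. Within E16.5 it thus differed by plate series. The changes of Slc17a6 and Slc17a7 from E18.5 to P3 were of like size when the cells above the median glial share of their stage were left out (1.96 and 2.95, adjusted p = 0.00047 and 0.0012). The steps of Slc17a7 from E15.5 to E16.5 (1.62, adjusted p = 0.12) and from E16.5 to E18.5 (1.34, adjusted p = 0.10) no longer passed the threshold without these cells. The cut was made within each stage, at a glial share of 0.27% at E18.5 and 0.81% at P3. It thus keeps the difference in glial RNA between stages. It cannot decide what part glial RNA had in the changes between them, which was not tested.

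Slc17a8 was close to its counting floor in SGN-like cells until E17.5. The plates from E14.5 to E16.5 held between 0 and 11 counts of it, or at most 0.243 CPM, and E17.5 held 0 counts, which allows a level of up to 0.19 CPM (3 counts, for counting error only). At E18.5 it measured 6.52 and 5.92 CPM, and at P3 1.54 and 1.19 CPM. The E18.5 plates lay above all others. The difference between E18.5 and E16.5 was 6.62 on the log2 scale (SE 1.10, adjusted p = 0.0083), and it no longer passed the threshold without either E18.5 plate (adjusted p = 0.092 without replicate 1 and 0.079 without replicate 2). Against E14.5, E18.5 stood 5.37 higher (SE 1.28, adjusted p = 0.012, and 0.065 or 0.062 without E18.5 replicate 1 or 2), and P3 stood 3.47 higher (SE 1.21, adjusted p = 0.037), which did not hold in 7 of the 12 fits that left out 1 plate, among them those without either P3 plate. The change from E18.5 to P3 was -1.90 (SE 1.03, adjusted p = 0.22). At E18.5, but not at P3, Slc17a8 was higher in the cells with more glial RNA. In E18.5 replicate 1, Slc17a8 stood at 11.2 CPM in the SGN-like cells above the median glial share and at 1.77 CPM in the cells at or below it. In replicate 2 it stood at 10.7 CPM in the cells above and at 1.36 CPM in those at or below. At P3 the cells above the median held 1.18 and 1.12 CPM and those at or below it 1.83 and 1.34 CPM. With the cells above the median left out, the difference between E18.5 and E16.5 was 7.14 (adjusted p = 0.052) and that between P3 and E18.5 was 0.21 (adjusted p = 0.95). The part of glial RNA in the E18.5 level was not tested further.

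The second comparison sets the neuron classes beside each other. Clusters were formed without the 3 transporters and without the gene lists used below, and were named from marker genes. The same cells still served both for the classes and for the tests, which can make p-values too small. Many SGN-like cells could not be named, 378 of 780 at E16.5 and 145 of 669 at E18.5, where 64 more were Ib/Ic-like, and these entered no comparison of classes. At E16.5, Ic-like cells (155 cells) held several times more Slc17a6 than cells of the common Ia/Ib/II lineage (247 cells). The unnamed sub-clusters of that stage held from 54.8 to 491 CPM, the highest in a sub-cluster of 68 cells with Tlx3, a marker of vestibular ganglion neurons. The level was 259.9, 234 and 235 CPM in Ic-like cells of replicates 1, 2 and 3, against 31.8, 44.3 and 47.4 CPM in Ia/Ib/II-like cells. The groups did not overlap. The share of genes called by the fit, which is another measure, was 1.63% of 13760. The difference was 2.59 on the log2 scale (SE 0.18, adjusted p = 0.00039), and with each cell named from its own marker scores it was 2.26 (adjusted p = 0.0032). Slc17a7 measured 20.6, 15.8 and 10.4 CPM in Ic-like and 12.5, 14.7 and 6.63 CPM in Ia/Ib/II-like cells, a difference of 0.48 (SE 0.42, adjusted p = 0.82) with overlapping groups. Slc17a8 had too few counts there to be tested.

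The same order of Slc17a6 was found in the later classes. At E18.5 it measured 57.2 and 76.2 CPM in Ia-like cells (60 cells of both plates), 261 and 245 CPM in Ib-like cells (46 cells), 437 and 442 CPM in Ic-like cells (121 cells) and 131 and 125 CPM in II-like cells (46 cells). At P3 it measured 52.4 and 117 CPM in Ia-like cells (138 cells), 612 and 612 CPM in Ib-like cells (180 cells), 825 and 827 CPM in Ic-like cells (161 cells) and 401 CPM in the 18 II-like cells of replicate 1. Replicate 2 held 4 II-like cells, under the minimum of 5. Among these 4 classes Ia-like cells were lowest and Ic-like cells highest in each plate of both stages. In a fit with stage as a term, Ib stood 2.40 above Ia (SE 0.25, adjusted p = 0.00017, with 1.51% of 14673 genes called), and Ic stood 2.91 above Ia (SE 0.25, adjusted p = 9.7e-06, with 4.34% called). Ic and Ib differed by 0.52 (SE 0.23, adjusted p = 0.55, with 0.423% called), and II differed from the mean of the type I classes by -0.36 (SE 0.22, adjusted p = 0.30, with 14.9% called). In the E17.5 and E18.5 plates alone the latter was -0.63 (adjusted p = 0.045), and in the P3 plates alone it was 0.068 (adjusted p = 0.94).

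Slc17a7 followed another order, with the highest level in Ia-like cells and, at P3, the lowest in II-like cells. At E18.5 it measured 80.8 and 73.8 CPM in Ia-like, 48.5 and 48.8 CPM in Ib-like, 22.4 and 24 CPM in Ic-like and 25.1 and 10.6 CPM in II-like cells. At P3 it measured 279 and 331 CPM in Ia-like, 248 and 290.4 CPM in Ib-like, 187 and 220.1 CPM in Ic-like and 47.7 CPM in II-like cells. Within each of the 4 plates Ia-like cells held more than Ib-like cells, although Ia and Ib overlapped across the plates of P3. Ic and II overlapped at E18.5. II stood below the mean of the type I classes (log2 fold change -1.78, SE 0.29, adjusted p = 0.00064). Ic against Ia was -1.17 (SE 0.26, adjusted p = 0.015), and this did not hold without E18.5 replicate 2 (-1.06, adjusted p = 0.19) or in the P3 plates alone (-0.60, adjusted p = 0.076). Ib against Ia was -0.40 (SE 0.27, adjusted p = 0.69) and Ic against Ib was -0.77 (SE 0.26, adjusted p = 0.35). For Slc17a8, none of these 4 differences passed the threshold (adjusted p from 0.36 to 0.99).

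**Figure D2:**
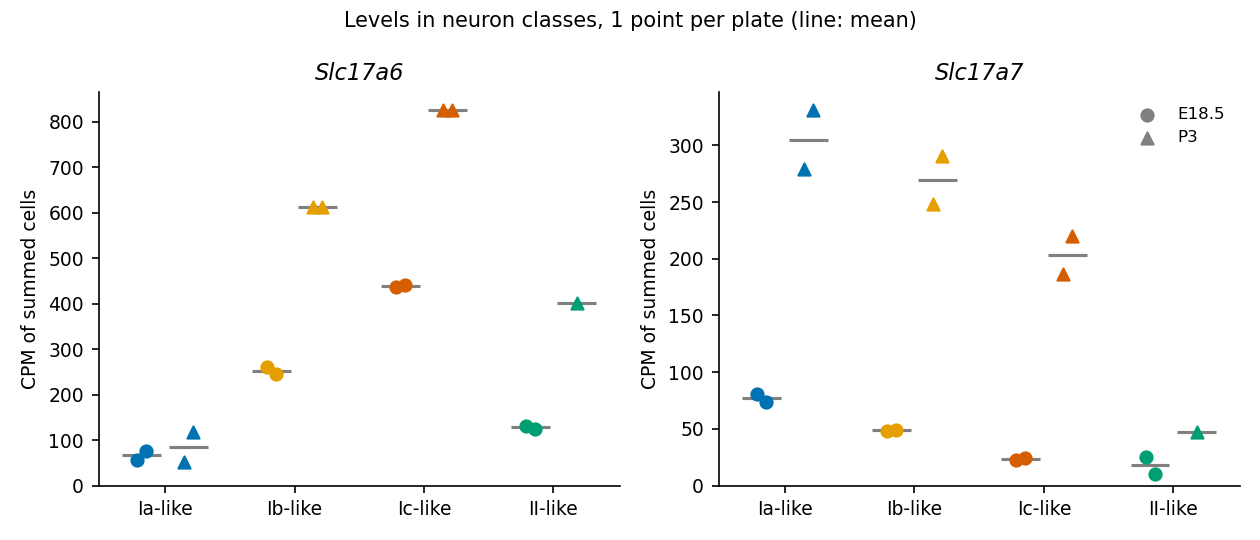
CPM (y axes, linear from 0) of Slc17a6 and Slc17a7 in the summed Ia-, Ib-, Ic- and II-like cells, with 1 point per plate, circles for E18.5, triangles for P3 and grey lines at the mean. Slc17a6 is lowest in Ia-like cells, at 117 CPM or less, and highest in Ic-like cells at both stages, whereas Slc17a7 is highest in Ia-like cells.

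Between E18.5 and P3 both genes were compared within each class. Slc17a7 rose in all 3 type I classes, by 2.23 on the log2 scale in Ia (SE 0.14, adjusted p = 8.8e-07, with 30.2% of 15295 genes called), by 2.67 in Ib (SE 0.14, adjusted p = 2.9e-07, with 30.8% called) and by 3.36 in Ic (SE 0.14, adjusted p = 6.2e-08, with 32% called). Slc17a6 rose by 1.48 in Ib (SE 0.26, adjusted p = 0.0011) and by 1.14 in Ic (SE 0.26, adjusted p = 0.0051). In Ia the change of Slc17a6 was 0.58 (SE 0.26, adjusted p = 0.12), and its difference from the change in Ib was not called (0.90, SE 0.37, adjusted p = 0.41, with 0.654% of genes called), so the classes were not shown to differ in this. For Slc17a7 the change in Ic exceeded that in Ia by 1.12 (SE 0.19, adjusted p = 0.016, with 0.804% called), and it differed from that in Ib by 0.69 (SE 0.19, adjusted p = 0.45, with 0.085% called). The summed glial markers in these sums were 2416 and 2699 CPM in Ia, 1382 and 1059 CPM in Ib and 2160 and 2132 CPM in Ic at E18.5, against 7837 and 11432 CPM, 6519 and 9040 CPM and 7467 and 8654 CPM at P3. Their part in the changes within classes was not tested.

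Per length of the principal transcript, Slc17a7 exceeded Slc17a6 in Ia-like cells and in no other of the 4 classes. This transcript has 2915 bases for Slc17a7 and 4137 for Slc17a6, whereas all exons together cover 5392 and 5399 bases. In raw counts, Ia-like cells of E18.5 replicate 2 held 1002 of Slc17a7 and 1035 of Slc17a6. Those of replicate 1 held 789 and 559, and Slc17a7 also had more counts in both P3 plates. The ratio of Slc17a7 to Slc17a6 was 2.0 and 1.37 in Ia-like cells at E18.5 and 7.56 and 4.00 at P3. In Ib-like cells it was 0.264 and 0.283 at E18.5 and 0.575 and 0.673 at P3. In Ic-like cells it was 0.0358 and 0.0379 at E15.5, and 0.1125, 0.0958 and 0.0627 in E16.5 replicates 1, 2 and 3. It was 0.1028 at E17.5, 0.0726 and 0.0771 at E18.5, and 0.321 and 0.378 at P3, so it did not rise steadily. In II-like cells it was 0.271 and 0.12 at E18.5 and 0.169 at P3. The Ia/Ib/II-like cells lay between 0.198 and 0.560 at E16.5 and reached 1.37 and 1.07 at E18.5. In raw counts these E18.5 cells held more Slc17a6, with 940 against 905 of Slc17a7 in replicate 1 and 1719 against 1300 in replicate 2.

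**Figure D3:**
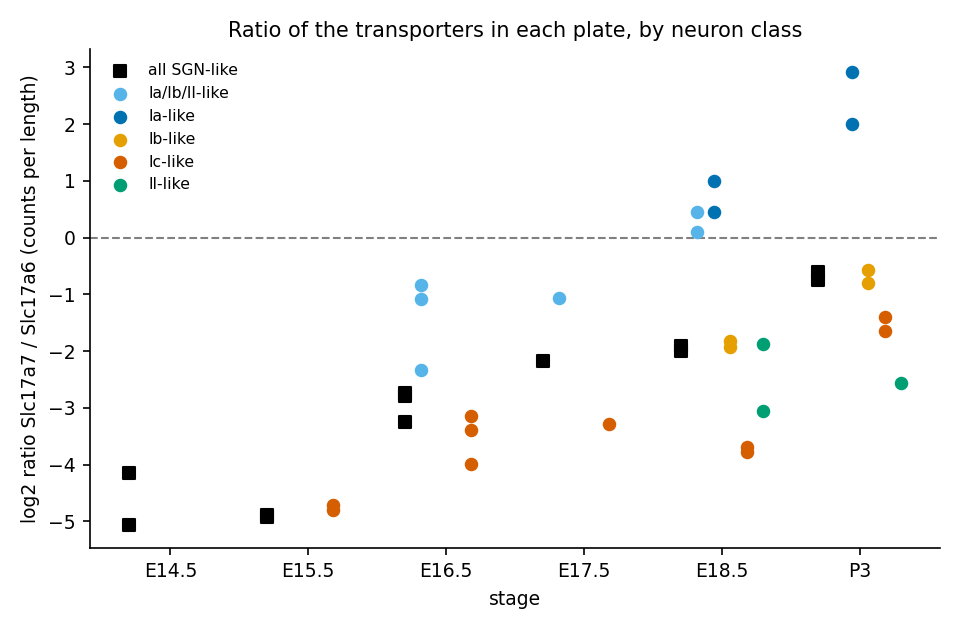
Log2 ratio of Slc17a7 to Slc17a6 counts per length of the principal transcript (y axis) by stage (x axis), with 1 point per plate, black squares for all SGN-like cells and coloured circles for the classes. Points above the dashed line at 0 hold more Slc17a7 than Slc17a6 per length. This is the case for Ia-like cells at E18.5 and P3 and for Ia/Ib/II-like cells at E18.5. By raw counts, Ia-like cells of E18.5 replicate 2 and both Ia/Ib/II-like sums of E18.5 held more Slc17a6.

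The classes also differed in how many cells carried each transporter. Each cell was thinned to 50000 counts, which equals out total counts but not the number of genes found per cell, and the latter differed between plate series as given above. The 70 kept cells with under 50000 counts were left out of these shares, which lowers some cell numbers below. At P3, 74 of 117 Ia-like cells of replicate 1 had Slc17a7 but no Slc17a6 (63.2%) and 10 of 21 in replicate 2 (47.6%). In Ib-like cells all 131 and all 46 had both. In Ic-like cells 97.2% and 98.1% had both, and the rest had Slc17a6 alone. At E18.5, 48.3% and 51.6% of Ia-like cells had Slc17a7 alone, while 53.4% and 49.2% of Ic-like cells had Slc17a6 alone. Among all SGN-like cells at E14.5, 92.8% and 88.3% had Slc17a6 and 15.9% and 6.67% had Slc17a7. In glia-like cells of the same plates 0 of 99 and 0 of 106 had either. Within Ia-like cells at P3 the levels of Slc17a6 were uneven, with a median of 1.62 CPM per cell and a highest value of 358 CPM in replicate 1, against 1.70 and 458 CPM in replicate 2. A count of 0 in a thinned cell does not show that a gene is off.

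**Figure D4:**
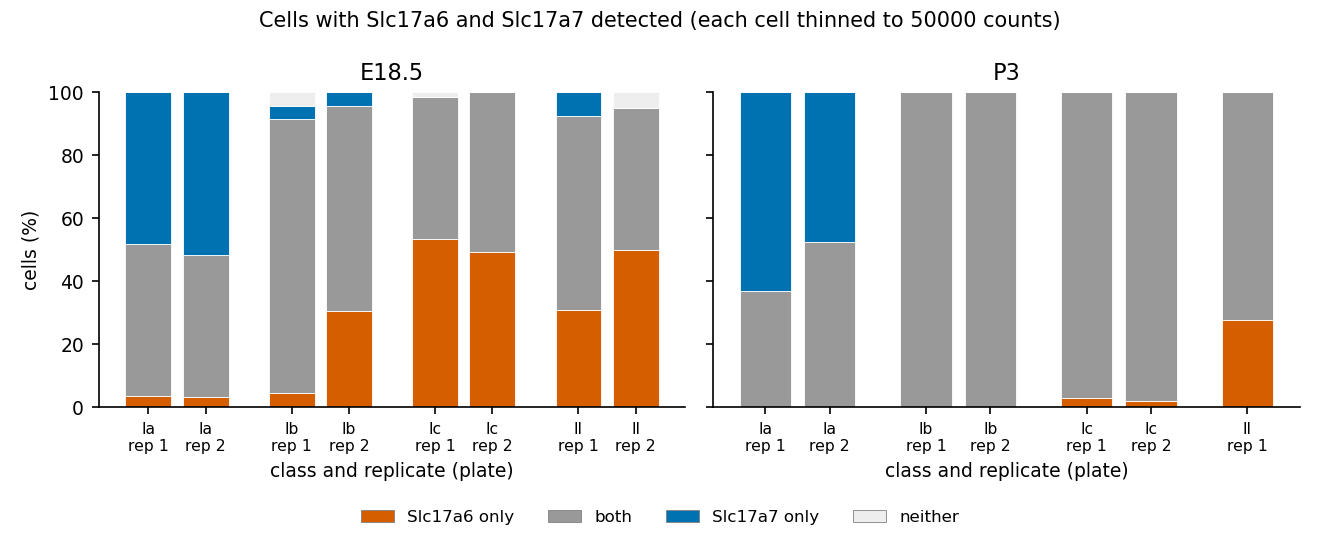
Share of cells (y axis, percent) with Slc17a6 alone, both, Slc17a7 alone or neither detected after thinning each cell to 50000 counts, with 1 bar per class and plate (x axis) at E18.5 and P3. Slc17a7 alone takes 63.2% and 47.6% of Ia-like cells at P3 and 0% of Ib-, Ic- and II-like cells.

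The third comparison concerns hair cells, which were numerous enough at E18.5 only. Slc17a8 was high in IHC-like and vestibular hair cell-like cells and lower in OHC-like cells. It measured 166.4 and 192 CPM in IHC-like cells (5 and 12 cells), 27.9 and 34.9 CPM in OHC-like cells (9 and 4 cells) and 347 and 282 CPM in vestibular hair cell-like cells (13 and 13 cells). The ranges did not overlap. The share of genes called by the fit, which is another measure, was 5.42% of 12661 between IHC and OHC and 13.6% between vestibular and cochlear hair cells. IHC-like cells stood 2.60 above OHC-like cells on the log2 scale (SE 0.26, adjusted p = 0.00019), and vestibular hair cells stood 2.07 above the mean of both (SE 0.20, adjusted p = 4.3e-05). Over both plates the vestibular level was 1.69-fold that of IHC-like cells alone, a difference that was not tested. All 5 and all 12 IHC-like cells had Slc17a8, against 3 of 9 and 1 of 4 OHC-like cells, after thinning. In OHC-like cells of replicate 1, 98.7% of the Slc17a8 counts came from 3 cells, so this level rests on few cells. The 3 highest cells gave 60.3% and 45.3% of the counts in vestibular hair cell-like cells and 77.2% and 47.5% in IHC-like cells.

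Against SGN-like cells of the same plates, cochlear hair cells (IHC-like, OHC-like and an unnamed hair cell cluster, 24 and 19 cells) held 78.4 and 142 CPM of Slc17a8, or 4.14 more on the log2 scale (SE 0.33, adjusted p = 0.00074, with 51% of 15970 genes called). They held 0 and 0.573 CPM of Slc17a7, which was lower than in SGN-like cells (log2 fold change -6.86, SE 0.64, adjusted p = 0.0012). Over both plates this was 31.3 CPM in 7690 counts against 0.269 CPM in 4 counts. Slc17a6 stood at 0 in replicate 1 and at 16.48 CPM in replicate 2. Its difference of -4.44 (SE 1.19, adjusted p = 0.031) did not pass the threshold in DESeq2 (-4.38, adjusted p = 0.21). Without the unnamed cluster, which is led by Epyc, Lum and Dcn, the levels of Slc17a6 were 0 and 1.07 CPM and the difference was -8.22 (adjusted p = 0.00012). The summed SGN markers, which include Stmn2 and Tubb3, were 867 and 1771 CPM in the cochlear hair cell sums, against 11439 and 11389 CPM in SGN sums, and their part in the Slc17a6 counts was not tested. The 10 hair cell markers summed to 6732 and 7398 CPM in the cochlear hair cells and to 146 and 151.1 CPM in SGN sums.

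**Figure D5:**
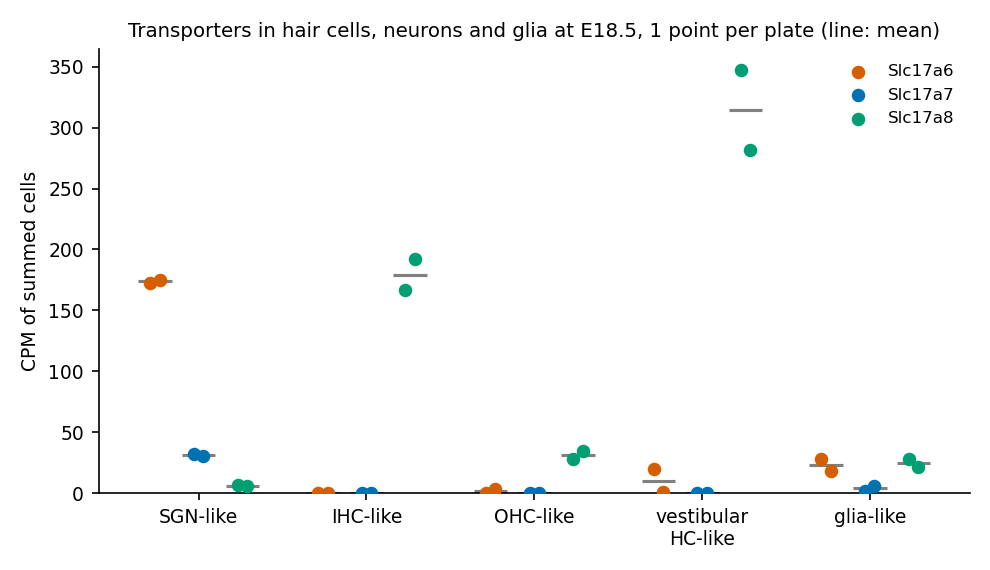
CPM (y axis, linear from 0) of the 3 transporters in summed SGN-like, IHC-like, OHC-like, vestibular hair cell-like and glia-like cells at E18.5, with 1 point per plate, colours for genes and grey lines at the mean. CPM is not corrected for length, so columns are to be read within a gene, where Slc17a8 reaches 282 and 347 CPM in vestibular hair cell-like, 166.4 and 192 CPM in IHC-like and at most 34.9 CPM in OHC-like cells.

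Glia-like and OM-like cells were sorted along with the neurons. At E14.5 the glia-like cells of both plates held 2 counts of Slc17a6 in all, against 10811 in SGN-like cells. Over E14.5 to E17.5, glia-like cells stood below SGN-like cells in Slc17a6 (log2 fold change -8.23, SE 1.66, adjusted p = 0.00034) and in Slc17a7 (log2 fold change -4.71, SE 1.46, adjusted p = 0.010), with 50.9% of 16251 genes called. OM-like cells stood lower in Slc17a6 (log2 fold change -7.0, SE 1.61, adjusted p = 0.0011, with 52.1% called). For Slc17a7 they gave -3.50 (SE 1.42, adjusted p = 0.045), which did not hold without any 1 of E14.5 replicate 1 or 2, E15.5 replicate 1, E16.5 replicate 2 or E17.5 (adjusted p up to 0.13). In E16.5 replicates 1 and 2, where only 17 and 9 glia-like cells were found, Slc17a6 was 19.6 and 33.8 CPM in them and the summed SGN markers were 6061 and 8707 CPM, against 138 CPM in replicate 3. The 5 and 10 OM-like cells of replicates 1 and 2 held 61.9 and 59.7 CPM of Slc17a6. Their summed SGN markers, 6457 and 8578 CPM, stood above their summed OM markers, 3420 and 3048 CPM. The part of neuronal RNA in the folds of both classes was not tested.

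The pathway around the transporters was described through 6 gene lists. Of 17 subunits of the vesicular proton pump, which drives all 3 transporters, 8 were higher and 1 lower at E18.5 than at E14.5, and 14 were higher and 1 lower at P3 than at E14.5. Of all genes, 23.6% and 45.4% were called in these comparisons, in either direction. The median log2 fold change of the list was 0.35 and 1.16, beside 0.10 and 0.09 over all genes. The neuronal subunit gene Atp6v1g2 rose by 1.85 (SE 0.24, adjusted p = 0.00036) to E18.5 and by 3.68 (SE 0.25, adjusted p = 1.7e-06) to P3, and Atp6ap2, an accessory subunit, rose by 1.94 (adjusted p = 5.8e-07) to P3. Of 10 genes of glutamate supply, 6 were higher and 1 lower at P3, among them Got1, a transaminase (2.40, adjusted p = 5.0e-07), and Gls2, a glutaminase (2.16, adjusted p = 0.0023), with a list median of 0.64. Of 5 glutamate uptake transporters of the cell membrane, 2 were higher and 1 lower, with Slc1a1 at 2.55 (adjusted p = 0.00040) and Slc1a2 at -1.45 (adjusted p = 0.0011). Among the endophilins, which act in vesicle recycling and bind VGLUT1, Sh3gl2 rose by 2.72 (adjusted p = 2.8e-06) and Sh3gl1 fell by 0.68 (adjusted p = 0.0026). Of 4 other vesicular transmitter transporters tested, the monoamine transporter Slc18a2 rose by 1.78 (adjusted p = 0.0062) and the acetylcholine transporter Slc18a3 was lower (-9.16, adjusted p = 0.0060), a fitted value that depends on the prior count. At E18.5 the counts higher and lower than at E14.5 were 4 and 2 for glutamate supply, 2 and 1 for uptake, 1 and 0 for endophilins and 0 and 1 for the other vesicular transporters. The 2 other SLC17 genes tested were at list medians of -0.81 in both comparisons, without a call.

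Between cochlear hair cells and SGN-like cells, where 51% of all genes were called, 2 of the 17 pump subunits were higher and 5 lower in hair cells, a share below that background, with Atp6v0e at 3.11 (adjusted p = 0.00011) and Atp6v1g2 at -4.15 (adjusted p = 0.0015). Of 10 genes of glutamate supply, 0 were higher and 7 lower, with Gls2 at -4.73 (adjusted p = 0.0090) and Got1 at -1.43 (adjusted p = 0.00092). The uptake transporter Slc1a3, known from glia and supporting cells, was higher in hair cells (2.49, adjusted p = 0.00022) and in IHC-like than in OHC-like cells (1.93, adjusted p = 0.026), while the neuronal Slc1a1 (-4.45, adjusted p = 0.0016) and the glial Slc1a2 (-1.62, adjusted p = 0.020) were lower. Markers of other cells moved with Slc1a3. The summed OM markers were 732 and 588 CPM in IHC-like against 47.3 and 90.3 CPM in OHC-like cells, the summed glial markers were 582 and 585 CPM against 265 and 126 CPM, and OM markers reached 3081 CPM in the cochlear hair cells of replicate 1. Their part in the Slc1a3 values was not tested. All 3 endophilin genes were lower, with Sh3gl3 at -1.99 (adjusted p = 0.012). Slc17a5, a lysosomal sialic acid transporter of the same family, was higher (0.98, adjusted p = 0.010). Among the other vesicular transporters the monoamine transporter Slc18a1 was higher (2.45, adjusted p = 0.011), and Slc18a2 (-2.0, adjusted p = 0.0023) and Slc18b1 were lower. Between IHC-like and OHC-like cells, where 5.42% of all genes were called, 2 of 16 pump subunits were lower in IHC-like cells, Atp6v0a1 (-0.80, adjusted p = 0.044) and Atp6v0e (-0.67, adjusted p = 0.0499). In II-like cells against the type I classes, where 14.9% of all genes were called, 4 of 10 supply genes were lower and 0 higher, with Got1 at -0.90 (adjusted p = 0.00041), and 4 of 17 pump subunits were lower and 1 higher, with Atp6v1g2 at -1.24 (adjusted p = 0.00011). The uptake genes Slc1a2 (-2.45, adjusted p = 0.0012) and Slc1a6 (-1.21, adjusted p = 0.015) were lower, and Slc18a2 (1.06, adjusted p = 0.023) and Slc18b1 (0.93, adjusted p = 0.0027) were higher. Of 38 list genes tested between Ic-like and Ia/Ib/II-like cells at E16.5, edgeR called 0, and 2 had an unadjusted p under 0.05.

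The genes with the most similar pattern were found by Pearson's r of log2(CPM + 1) among genes with a mean of at least 10 CPM. Over the 12 SGN sums, Slc17a6 was most like Aes (0.95), Psmd14 (0.948) and Calb1 (0.947), and Slc17a7 was most like Bcam (0.988), Tspan3 (0.985) and BC048546 (0.983). Slc17a8, with a mean of 1.32 CPM in these sums, was most like Abhd4 (0.938). Over 38 sums of all broad classes, Slc17a6 was most like Cckar (0.959) and Pou4f1 (0.956), and Slc17a7 was most like Sncb (0.940) and Clec2l (0.940). There Slc17a8 was most like the hair cell transduction channel gene Tmc1 (0.903), followed by Ccdc108 (0.895), Xirp2 (0.892), Wdr63 (0.890) and Hydin (0.886). These points share plates, depth and cell makeup, and the values are descriptions only.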

How the data were processed

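Smart-seq2 counts per gene and cell were deposited by the authors for 12 plates, each 1 sample. According to the study's methods, reads were aligned to mm10 with STAR in 2-pass mode and uniquely mapped reads were counted, and Scanpy is named in the submitters' processing notes without a version. A further plate of 384 wells without a sample was not used. Cells with over 1000 genes and under 5% ERCC counts were kept. Clusters (scanpy 1.11.5, Leiden 0.10.2, resolution 1, 2000 variable genes, 30 components) were made without the transporters, the gene lists and 1371 glial genes, and were named from marker genes. No doublet caller was run, and leaving out the top 5% of cells by counts was an alternative. No barcode was shared between plates.

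Raw counts were summed per class and plate, with at least 5 cells (3 for hair cells), and tested with edgeR 4.0.16 (quasi-likelihood, TMM, R 4.3.3) over all genes passing its filter on low counts, with Benjamini-Hochberg adjustment at 0.05. DESeq2 1.42.0 was an alternative, among others for the filter, the clustering, the cells and each plate left out. Class sums of 1 plate come from the same sort, which pairs them, and a fit with the plate as block was run. P-values measure only the spread between plates. Shares of cells were taken after thinning to 50000 counts, without the cells that had fewer. The tests were checked on simulated data.

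The transporters and lists were chosen with earlier results of these data known. When the rule for naming classes was settled, cluster tables with transporter levels were already known, while no classes had yet been tested against each other. The genes named in the text are the 3 transporters, up to 3 called genes of each list with the greatest change in a comparison, and the first of the 5 genes of most similar pattern.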

Additional observations from a re-analysis of the deposited data

Results flagged for a closer look

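The rise of Slc17a7 from E18.5 to P3 differed between classes. It was 2.23 on the log2 scale in Ia-like and 3.36 in Ic-like cells, and the difference of 1.12 (SE 0.19, adjusted p = 0.016, edgeR) passed the threshold in an interaction test that called 0.804% of 15295 genes. The levels were 80.8 and 73.8 CPM in Ia-like and 22.4 and 24 CPM in Ic-like cells at E18.5, against 279 and 331 CPM and 187 and 220.1 CPM at P3. The comparison was added after the data had been seen. No group had 4 or more plates, so no plate could be tested for standing apart from its group.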

How the results depend on the processing

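Of 768 values of the transporters under alternatives, 687 kept their direction and their side of the threshold, 40 lost the threshold, 15 gained it, 21 reversed and 5 moved without a test. All reversals were of Slc17a8 except Slc17a6 in II against type I in the P3 plates alone (0.068) and in E18.5 against E16.5 without a plate. The causes were not tested. With DESeq2, Slc17a6 passed from E14.5 to E15.5 (-0.50) and from E15.5 to E16.5 (-0.53), as did Slc17a7 in the former (-0.88), while Slc17a6 in hair cells did not (-4.38), and the genes called were 2447, 1383 and 1957 for the 3 successive steps to E18.5, 490 for Ib-Ia, 1044 for Ic-Ia, 241 for Ic-Ib and 562 for Ic-Ia/Ib/II. Without the filter on low counts Slc17a6 passed in both early steps (-0.51 and -0.50) and in vestibular against cochlear hair cells (4.22), Slc17a7 in OM-like cells did not (-3.50), and 511 genes were called from E15.5 to E16.5 and 1249 between IHC and OHC. With Leiden resolution 2, Slc17a6 passed in both early steps (-0.53 and -0.55), while Slc17a7 did not pass in OM-like cells (-3.30) or in Ic-Ia (-0.88), where Slc17a8 was -0.10. With the stricter cell filter of the reporting summary, Slc17a6 passed from E14.5 to E15.5 (-0.51), Slc17a8 was 0.049 there and 0.19 in Ib-Ia, Slc17a7 in OM-like cells was -3.45, and Ic-Ib called 30 genes. With cells named one by one, 93 genes were called at E16.5, 987 for II, 118 for Ib-Ia, 394 for Ic-Ia and 9 for Ic-Ib.

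Without the cells above the median glial share, Slc17a7 lost the steps to E16.5 (1.62) and E18.5 (1.34) and in OM-like cells (-3.28), Slc17a8 was 6.23 from E14.5 to E15.5, 7.14 from E16.5 to E18.5, 0.21 from E18.5 to P3, 1.52 in Ib-Ia and -0.81 in Ic-Ib, and 225, 438 and 2784 genes were called in the steps to E16.5, E18.5 and P3, 79 at E16.5, 3.5e+02 for Ic-Ia and 20 for Ic-Ib. With equal cell weights Slc17a8 was 0.063 from E15.5 to E16.5, -1.88 from E18.5 to P3 (adjusted p = 0.025) and 1.81 from E14.5 to P3, and 515 and 1811 genes were called in the steps to E16.5 and E18.5. Without the top 5% of cells by counts Slc17a7 was 1.06 from E16.5 to E18.5 (adjusted p = 0.094) and -3.28 in OM-like cells, and Slc17a8 was 3.23 from E14.5 to P3. Without Tlx3 sub-clusters Slc17a7 was 0.96 from E16.5 to E18.5 and Slc17a8 was 1.75 from E14.5 to E15.5. Within SS2_20, 276 genes were called from E14.5 to E15.5 and, with edgeR, 0 from E15.5 to E16.5 (851 at an unadjusted p under 0.05), Slc17a7 was 1.28 there, and rho of the ratio was 0.736. In the P3 plates alone, Slc17a7 was -0.60 and Slc17a8 -0.86 in Ic-Ia, Slc17a8 was -0.63 in Ic-Ib, and 23 genes were called in Ic-Ib. In the E17.5 and E18.5 plates alone, Slc17a6 was -0.63 in II, Slc17a8 was 0.17 in Ib-Ia, and 944, 91 and 364 genes were called for II, Ib-Ia and Ic-Ia.

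With the plate as a replicate block, Ib-Ia called 387 genes instead of 221, and no call of a transporter changed. No paired analysis was possible for the stages because they share no plate. The median share of SGN-like cells with Slc17a6 was 69.9% with at least 3 counts and 82.3% unthinned, that with Slc17a7 was 47.7% at 100000 counts, 13.4% with at least 3 counts and 57.0% unthinned, and that with Slc17a8 was 1.16% and 1.54%.

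Leaving out each plate in turn gave 562 to 1681 genes from E14.5 to E15.5, 62 to 1165 from E15.5 to E16.5, 87 to 1414 from E16.5 to E18.5, 2164 to 5308 from E18.5 to P3, 2152 to 5000 from E14.5 to E18.5 and 6235 to 8617 from E14.5 to P3. It gave 888 to 2960 for II, 59 to 394 for Ib-Ia, 222 to 758 for Ic-Ia, 4 to 66 for Ic-Ib and 21 to 908 at E16.5. From E14.5 to E15.5 the values were -0.65 to -0.38 for Slc17a6, -1.28 to -0.32 for Slc17a7 and -6.68 to 0.95 for Slc17a8, and from E15.5 to E16.5 they were -0.63 to -0.37, 1.37 to 1.61 and -1.90 to 5.45. From E16.5 to E18.5 they were -0.0017 to 0.18, 0.98 to 1.15 and 6.35 to 7.11. Slc17a8 ranged from 4.74 to 6.61 from E14.5 to E18.5 and from 2.84 to 4.70 from E14.5 to P3. In classes the ranges were -0.62 to -0.19 for Slc17a6 in II, -1.38 to -1.001 for Slc17a7 in Ic-Ia, -5.02 to -2.67 for Slc17a7 in OM-like cells, and -0.54 to 0.69, -0.041 to 1.62 and -0.15 to 1.23 for Slc17a8 in Ib-Ia, Ic-Ia and Ic-Ib. In hair cells, where 1 plate leaves no test, Slc17a8 was 3.595 to 4.58 against SGN-like cells and 1.76 to 2.38 in vestibular against cochlear, and Slc17a7 was -5.74.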

Other observations

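Slc17a8 was also counted in a few glia-like cells. At E17.5, 21 of 246 glia-like cells held all 757 counts, or 14.3 CPM, and 3 cells held 43.5% of them, while the SGN-like cells of that plate held 0 counts, so that the glia-like level was at least 75.3-fold higher (3 counts over the SGN sum). The 10 hair cell markers summed to 36.1 CPM in those 21 cells and to 39.6 CPM in the other glia-like cells of the plate. The source of these Slc17a8 counts was not tested. In E15.5 replicate 2, 4 glia-like cells with Slc17a8 held 362 CPM of the hair cell markers, among them 101 CPM of Myo7a and 84.1 CPM of Gfi1, against 31.4 CPM in the cells without it. The 4 cells were shallow, with a median of 27022 total counts against 238590 in the cells without Slc17a8. They held 20 counts of Slc17a8 in all, so these CPM values rest on few counts. In E16.5 replicate 3, 4 of 228 glia-like cells held 59 counts. At E18.5 the level was 28.1 and 21.1 CPM in 7 glia-like cells of each plate, of which 5 and 4 had the gene. At E14.5, OM-like cells held 84 counts in 2 cells of replicate 2 and 62 counts in 1 cell of replicate 1. Over E14.5 to E17.5, glia-like against SGN-like cells gave 2.32 (SE 1.52, adjusted p = 0.21, edgeR).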
